A study of Mus musculus with 31 samples.

Results

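Punches of the basolateral amygdala (BLA) from 16 Control mice were ranked by their content of Mbp, the gene of myelin basic protein, and the 5 punches with the most Mbp were set against the 5 with the least. The ranking used CPM, the count of a gene divided by the total of its library and scaled to 1000000 counts. Together the 2 sets held 10 of the 16 Control mice and of the 31 mice in all. The remaining 6 Control mice lay between the sets. Because the sets were chosen on Mbp in these same libraries, every difference between them is given as a description, without a test. Tests were made in the 15 CYFIP OE mice, which the ranking did not use.

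RNA was sequenced by QuantSeq, which reads the 3′ end of polyadenylated transcripts. The tissue was a 1 mm punch, placed by eye within the white matter that surrounds the BLA, with the punches of both hemispheres of a mouse pooled, so that each library is 1 mouse. Control mice were wild-type littermates on the C57BL/6N background, 58 to 61 days old. CYFIP OE mice carried a bacterial artificial chromosome with human CYFIP1 inserted at random, came from the lines labelled 1 and 3, and were 58 to 77 days old. The groups thus pool mice of both lines, and the labels give 8 Control mice for each.

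Oligodendrocytes wrap axons in many layers of membrane that are fused into compact myelin, and loops and borders of uncompacted membrane keep the sheath attached and supplied. Mbp protein draws the inner faces of the membrane together, and its mRNA is carried out into the sheath. The BLA is bounded laterally and medially by fibre tracts, the external capsule and the longitudinal association bundle, and its own projection neurons are glutamatergic cells related to those of the cortex. A punch of this region can therefore hold more or less white matter and more or less of the neighbouring striatum, central amygdala and piriform cortex.

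In the high set Mbp was at 3116 CPM in Control 1, 1997 in Control 5, 1794 in Control 13, 1760 in Control 9 and 1662 in Control 7. In the low set it was at 765 CPM in Control 3, 587 in Control 2, 575 in Control 10, 516 in Control 12 and 515 in Control 16. The set means were 2066 ± 600 and 592 ± 102 CPM (SD, n = 5 each), a ratio of 3.49. The mouse just below the high set had 1274 CPM and the mouse just above the low set 795, so the lower boundary fell between nearly equal values. Mbp took from 0.0515% to 0.312% of the counts of a Control library.

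**Figure D1:**
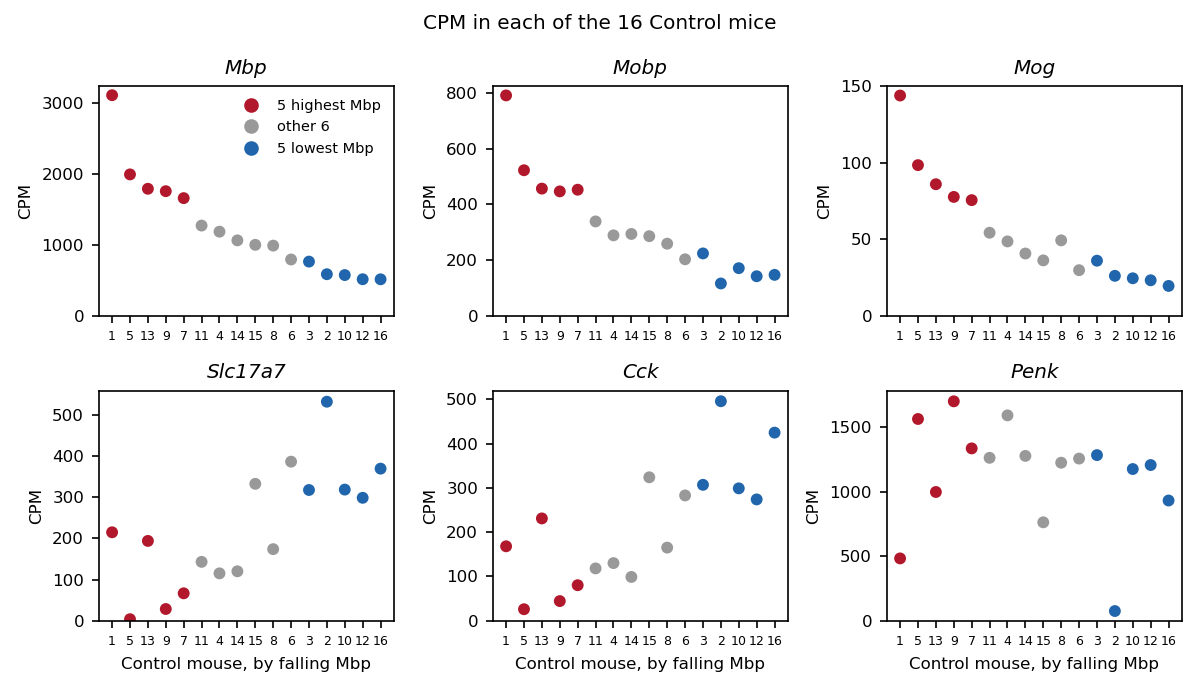
CPM (vertical axes, linear, from 0) of 6 genes in each of the 16 Control mice, ordered from the highest to the lowest Mbp; each point is 1 mouse, red for the 5 highest, grey for the other 6 and blue for the 5 lowest. Mobp and Mog follow the order of Mbp closely, Slc17a7 and Cck are lower in all red than in all blue points, and Penk has 1 blue point at 74.0 CPM and 1 red point at 482 CPM under the rest.

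The sets were not balanced in make-up. In the high set 3 mice came from line 1 and 2 from line 3, with 4 males and 1 female. In the low set 1 mouse came from line 1 and 4 from line 3, with 2 males and 3 females. Total counts ran from 7701876 to 8671967 in the high set and from 6422235 to 8685521 in the low set, and between 21286 and 22443 genes had a read in these 10 mice. Mitochondrially encoded genes took 6.62% to 8.06% of counts in the high set and 6.45% to 8.39% in the low set. The parts of line, sex and depth in the differences were not tested. Mice whose names share a prefix were compared among themselves as well, since 3 prefixes held mice of both sets, with 9 of the 10 mice. The mouse gene Cyfip1 had 38.5 ± 6.30 CPM in the high and 35.3 ± 5.19 CPM in the low set (SD, n = 5 each).

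Several libraries stood apart in what they held of the neighbouring regions. Control 2 of the low set had 1034 CPM over the 19 striatal genes against 5589 to 6215 in the other low mice, and Control 1 of the high set had 2080 against 4463 to 7460 in the other high mice. Both had much RNA of choroid plexus genes, 9721 CPM in Control 2 and 7191 in Control 1, and Control 1 had the most thalamic gene counts, 613 CPM against 211 to 280 in the rest of its set. Choroid plexus RNA was not particular to these mice. Its sum was 4258 CPM in Control 9 and 2260 in Control 13 of the high set. Between the sets it was 4482 CPM in Control 15 and 1832 in Control 8, and the lowest sum was 42.4 CPM in Control 16. Some markers of BLA principal neurons were nearly absent from Control 5 and Control 9 of the high set. Slc17a7, the vesicular glutamate transporter of cortical and BLA neurons, was at 3.36 CPM in Control 5 and 28.2 in Control 9, and Rspo2, a marker of BLA neurons, was at 0.259 CPM in Control 5 and had no read in Control 9, where 3 reads would be 0.361 CPM. How much of the labelled tissue those 2 punches held was not tested. Summed over all 18 principal neuron genes, Control 5 had 977, Control 9 had 1187 and Control 7 had 1137 CPM, against 2188 to 3438 in the low set. Camk2a, which striatal neurons also express, made up 575 CPM of the sum in Control 5 and 628 in Control 9. In the low set it had 753 to 1297 CPM. Counts and medians are given first also without Control 1 and Control 2.

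A gene was kept if no fewer than 20% of the 31 mice had 10 or more reads of it. Of the 17428 genes kept, 322 (1.85%) had all 5 high values above all 5 low values and 236 (1.35%) had all 5 below. When 1 mouse of the sets was left out, these shares ran from 2.12% to 3.55% and from 1.64% to 3.08%. The median difference over all 17428 genes was 0.00, on the scale of mean log2(CPM + 0.5) in the high set minus that in the low set, which is used for all differences below. Without Control 1 and Control 2, in sets of 4 and 4, the shares were 3.93% and 3.34%. In those smaller sets the genes higher without overlap were 5 of 5 for compact myelin, 14 of 18 for noncompact myelin, 8 of 10 for lipid synthesis, 17 of 18 for transport, 8 of 10 for transcription factors, 3 of 15 for precursors and 7 of 18 for astrocytes. The genes lower without overlap were 5 of 18 for principal neurons and 9 of 26 for synapses. The medians were 1.48 for compact myelin, 1.38 for noncompact myelin, -1.82 for principal neurons and 0.24 for the thalamic list. In the CYFIP OE mice the relation of every gene to Mbp was tested with edgeR's quasi-likelihood test, in a model that also held line and sex, and p was adjusted over 17427 genes by the Benjamini-Hochberg method. The slope is the log2 change of a gene per doubling of Mbp CPM. At an adjusted p under 0.05, 133 genes (0.763%) rose and 213 (1.22%) fell with Mbp. Mbp itself ran from 293 to 1730 CPM in these mice, with a median of 794. When 1 mouse was left out, the counts ranged from 59 to 164 rising and from 78 to 260 falling genes, and CYFIP OE 7, next to the lowest in Mbp, gave 59 and 78 when left out. CYFIP OE 13, with the highest Mbp, gave 59 and 126, CYFIP OE 9 gave 81 and 132, CYFIP OE 3 gave 90 and 120, and CYFIP OE 10 gave 98 and 136. Within lines the test called 11 rising and 6 falling genes in the 7 mice of the line labelled 1, and 32 and 40 in the 8 mice of the line labelled 3. Without the 4 mice aged 77 days the counts were 37 and 33. The median slope of all genes was 0.00.

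All 5 measured genes of compact myelin other than Mbp were higher in the high set without overlap, with a median difference of 1.73, and all 5 rose with Mbp in the CYFIP OE mice, with a median slope of 0.87. Mobp, a small basic protein of compact myelin (chromosome 9 of GRCm38, 120149707 to 120181484), had 792, 523, 457, 447 and 453 CPM in the high set, in the order of falling Mbp, and 224, 116, 171, 142 and 147 in the low set. The lowest high mouse, at 447, was far above the highest low mouse, at 224, and Control 1 was far above the rest. Among the CYFIP OE mice Mobp ran from 107 over a median of 211 to 528 CPM, with a slope of 0.87 (standard error 0.14, adjusted p = 0.00257 from edgeR).

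Cldn11, the claudin that seals the layers of the sheath (chromosome 3, 31149920 to 31164324), had 486, 273, 285, 252 and 230 CPM in the high set and 84.7, 81.5, 64.9, 67.6 and 65.2 in the low set. The low mice were close together and the high mice were not, again with Control 1 on top. Its difference of 2.02 was the widest of the list, and its slope in CYFIP OE mice was 0.88 (standard error 0.10, adjusted p = 0.000214 from edgeR). Mal, a proteolipid of myelin trafficking, and Pmp22, a tetraspan protein better known from peripheral nerve, had differences of 1.54 and 1.40. Slopes of Mal and Pmp22 were 0.78 and 0.77.

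Of the 18 genes of noncompact myelin and of the myelin surface, 12 were higher without overlap, 17 had a positive difference, and the median difference was 1.48. Among CYFIP OE mice 11 of the 18 rose and 0 fell. The 11 became 6 without CYFIP OE 7 or CYFIP OE 11, 7 without CYFIP OE 9 or CYFIP OE 13, and 5 without the mice aged 77 days. Mog, a glycoprotein of the outermost myelin surface (chromosome 17, 37010743 to 37023398), had 144, 98.5, 86.0, 77.7 and 75.6 CPM in the high set and 36.0, 26.1, 24.5, 23.2 and 19.5 in the low set. In both sets the order of Mog was that of Mbp. Its slope was 1.11 (standard error 0.12, adjusted p = 0.000214 from edgeR). Mag, the adhesion protein of the inner myelin surface facing the axon, had 281 ± 69.5 and 85.5 ± 3.08 CPM (SD, n = 5 each), and the 5 low mice lay within 82.0 to 89.3 CPM. Cnp, the cyclic nucleotide phosphodiesterase that keeps cytoplasmic channels in myelin open, had 315 ± 83.2 and 101 ± 10 CPM (SD, n = 5 each). The slopes of Mag and Cnp were 0.88 and 0.62 (adjusted p = 0.00512 and 0.0216 from edgeR).

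Anln, a septin-binding protein of the sheath, and Ermn, an actin-binding protein of late myelination, had differences of 2.21 and 2.01 and slopes of 1.08 and 0.92. Opalin, a membrane protein found only in central myelin, had a difference of 1.91, and its slope of 0.76 was near the threshold (adjusted p = 0.0488 from edgeR). Some genes of the same list did not follow. Tppp, a tubulin-binding protein of oligodendrocytes that neurons also express, had 170 ± 24.8 and 163 ± 9.15 CPM (SD, n = 5 each), and Omg, a myelin-associated protein also made by neurons, had 31.2 to 40.1 and 29.1 to 38.6 CPM. Sept8 had a difference of -0.25. None of these 3 passed the test in CYFIP OE mice.

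**Figure D2:**
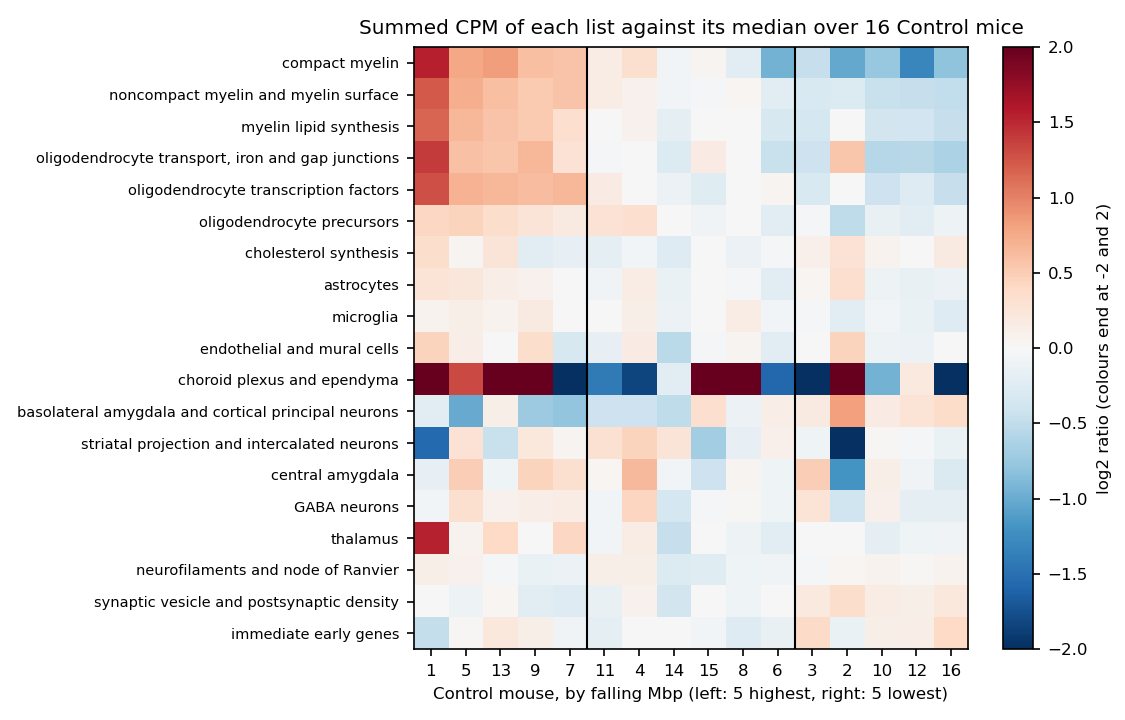
Colour gives the log2 ratio of the summed CPM of each of 19 gene lists (rows) to the median of that list over the 16 Control mice (columns, ordered by falling Mbp, with lines that set off the 5 highest on the left and the 5 lowest on the right); colours end at ratios of -2 and 2. The compact myelin row goes from red on the left to blue on the right, the principal neuron row is bluest in Controls 5, 7 and 9 and reddest in Control 2, the choroid plexus row swings from 42.4 to 9721 CPM without following the order, and Control 1 and Control 2 are blue in the striatal row.

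The enzymes that make the lipids of the sheath followed the myelin proteins with smaller differences. Of 10 such genes, 6 were higher without overlap, all 10 had a positive difference, and the median was 1.13. With Mbp in the CYFIP OE mice 4 rose and 0 fell, and 2 rose without the mice aged 77 days. Ugt8a, which makes galactosylceramide, had 74.6, 53.3, 49.5, 58.5 and 46.0 CPM in the high set and 16.6, 15.3, 25.7, 25.7 and 13.1 in the low set, and its slope was 1.06 (standard error 0.14, adjusted p = 0.000778 from edgeR). Fa2h, which hydroxylates the fatty acids of these lipids, and Aspa, which frees acetate from N-acetylaspartate in oligodendrocytes, had differences of 1.49 and 1.58 and slopes of 0.87 and 0.89. Cers2, a ceramide synthase for very long chains, had a difference of 1.26 and a slope of 0.52.

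Synthesis of cholesterol, the main sterol of myelin, was not arranged in this way. Of 19 genes of the pathway 0 were higher and 1, Fdps, was lower without overlap, and the median difference was -0.05. Of the 19 genes 0 passed edgeR's test in CYFIP OE mice in either direction, with 2 falling at an unadjusted p under 0.05 and 0 by DESeq2, and the median slope was -0.18. Without CYFIP OE 1 there was 1 falling gene. Without Control 1 there were 2 genes lower without overlap, and without Control 16 there was 1 higher. Hmgcs1, the enzyme at the entry of the pathway, had 286 ± 64.6 CPM in the high and 297 ± 27.0 CPM in the low set (SD, n = 5 each). Every cell type of the brain expresses these genes.

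Genes for transport, iron handling and coupling of oligodendrocytes had the largest share of members without overlap after compact myelin, 15 of 18, with a median difference of 1.38. Of the 18 genes 12 rose in CYFIP OE mice and 0 fell. The 12 became 7 without CYFIP OE 13 and 3 without the mice aged 77 days. Trf, the iron carrier transferrin, had 399, 301, 225, 258 and 262 CPM in the high set and 82.2, 120, 91.0, 78.1 and 59.8 in the low set. The highest low mouse, Control 2, stayed well below the lowest high mouse. The means of Trf were 289 ± 67.1 and 86.2 ± 22 CPM (SD, n = 5 each), and Fth1, the ferritin heavy chain, which stores iron in many cell types, had 2137 ± 559 and 1198 ± 247 CPM (SD, n = 5 each). Car2, a carbonic anhydrase, Qdpr, which recycles tetrahydrobiopterin, and Apod, a lipid carrier, had differences of 1.13, 1.39 and 1.39.

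Cryab, a small heat shock protein abundant in oligodendrocytes, had the smallest unadjusted p of the rising genes, with a slope of 0.83 (standard error 0.08, adjusted p = 6.34e-05 from edgeR). Its difference in Control mice was 1.37, with 112 to 267 CPM in the high and 46.2 to 91.0 in the low set. The slopes of Trf, Qdpr, Car2 and Fth1 were 0.80, 0.58, 0.50 and 0.43, with adjusted p from edgeR between 0.00177 and 0.00871. Enpp2, or autotaxin, which choroid plexus also expresses strongly, overlapped, with 175 to 1610 CPM in the high set and 68.2 to 1551 in the low set. The highest low value was that of Control 2, the mouse with the most Ttr.

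Transcription factors of the lineage were graded. Of 10 factors, 6 were higher without overlap, the median difference was 0.97, and in CYFIP OE mice 4 rose and 0 fell. The 4 became 1 without CYFIP OE 13 and 2 without CYFIP OE 7 or without the mice aged 77 days. Myrf, which switches on myelin genes in differentiating oligodendrocytes, had 50.3, 40.2, 42.9, 38.3 and 34.1 CPM in the high set against 13.5, 14.6, 10.3, 14 and 10.7 in the low set. Its difference of 1.67 was the widest of the list, and its slope was 0.74 (standard error 0.14, adjusted p = 0.00736 from edgeR). Olig1, Sox10 and Nkx6-2 had differences of 1.36, 1.10 and 0.70 and slopes of 0.55, 0.67 and 0.68. Olig2, which precursors and mature cells share, had 27.3 ± 13.6 and 10 ± 2.76 CPM (SD, n = 5 each) and an adjusted p of 0.0842 from edgeR in CYFIP OE mice.

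Genes of oligodendrocyte precursors mostly overlapped. Of 15 genes on the list 2 were higher without overlap, and both, Bcas1 and Enpp6, mark cells that have begun to form myelin. Without Control 7 there were 4 (26.7%, against 3.45% of all genes). The median difference was 0.39, and 1 gene, Bcas1, rose in CYFIP OE mice with a slope of 0.79 (standard error 0.12, adjusted p = 0.00251 from edgeR). Bcas1 had 127 to 202 CPM in the high and 36.7 to 62.5 in the low set. Pdgfra, the growth factor receptor that defines precursors, had 23.9, 16.5, 15.2, 16.1 and 12.8 CPM in the high set and 12, 18.9, 8.28, 16.4 and 9.65 in the low set. Cspg4, the NG2 proteoglycan, had 3.90 to 9.05 and 4.33 to 9.33 CPM. For both defining genes the sets overlapped widely. In bulk tissue fewer cells of a type and less RNA per cell cannot be told apart, here and in all that follows.

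The list with the lowest median difference was that of BLA and cortical principal neurons. Of its 18 genes 2 were lower without overlap and 16 had a negative difference, with a median of -1.56. The 2 became 7 without Control 13 (38.9%, against 3.08% of all genes) and 5 without Control 1 (27.8%, against 2.19%). With Mbp 11 of the 18 fell in CYFIP OE mice and 0 rose, with a median slope of -1.33, and 6 fell without the mice aged 77 days. Slc17a7 (chromosome 7, 45163949 to 45176142) had 215, 3.36, 194, 28.2 and 66.4 CPM in the high set, in the order of falling Mbp, and 318, 533, 319, 299 and 370 in the low set. The sets did not overlap, and the high set itself spread from nearly none to values not far under the low set. The difference was -2.85. Among the CYFIP OE mice Slc17a7 ran from 18.8 over a median of 216 to 825 CPM, with a slope of -1.84 (standard error 0.28, adjusted p = 0.00257 from edgeR).

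Cck, a neuropeptide of pyramidal cells and of some interneurons (chromosome 9, 121489824 to 121495694), had 168, 25.7, 231, 44.1 and 80.0 CPM in the high set against 307, 496, 299, 274 and 425 in the low set. Its slope was -1.48 (standard error 0.28, adjusted p = 0.00838 from edgeR). The transcription factors Neurod6 and Neurod2 of differentiated excitatory neurons had differences of -2.48 and -2.56, but overlapped: Control 1 had 94.0 CPM of Neurod6, above 4 of the low mice. Their slopes were -1.94 and -1.76. Bdnf, a neurotrophin, Rspo2, Dkk3, Nptx1 and Nrn1 also fell in CYFIP OE mice, with slopes from -1.75 to -0.97. Camk2a, the kinase of excitatory synapses, which striatal neurons express too, had a difference of only -0.49 and a slope of -0.65 (standard error 0.09, adjusted p = 0.00161 from edgeR).

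The size of the principal neuron difference varied between name prefixes. Within the 3 prefixes that held both sets, with 1, 1 and 3 high against 1, 2 and 1 low mice, the median difference of the list ran from -2.34 to -0.15, and Slc17a7 differed by -0.62, -0.94 and -4.04. Neurod6 differed by 0.07, 0.34 and -4.03. Controls 5, 7 and 9, the mice with the least Slc17a7, share the prefix with the difference of -4.04 and are all of the line labelled 1. Over the same 3 prefixes the median of compact myelin ran from 1.36 to 2.29. Ranked anew within each line, 3 highest against 3 lowest mice, the principal neuron median was -2.09 in the line labelled 1 and -0.83 in the line labelled 3, and the compact myelin median was 1.18 and 1.82. What the prefix stands for is not given in the sources used here, and its part in the difference was not tested.

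**Figure D3:**
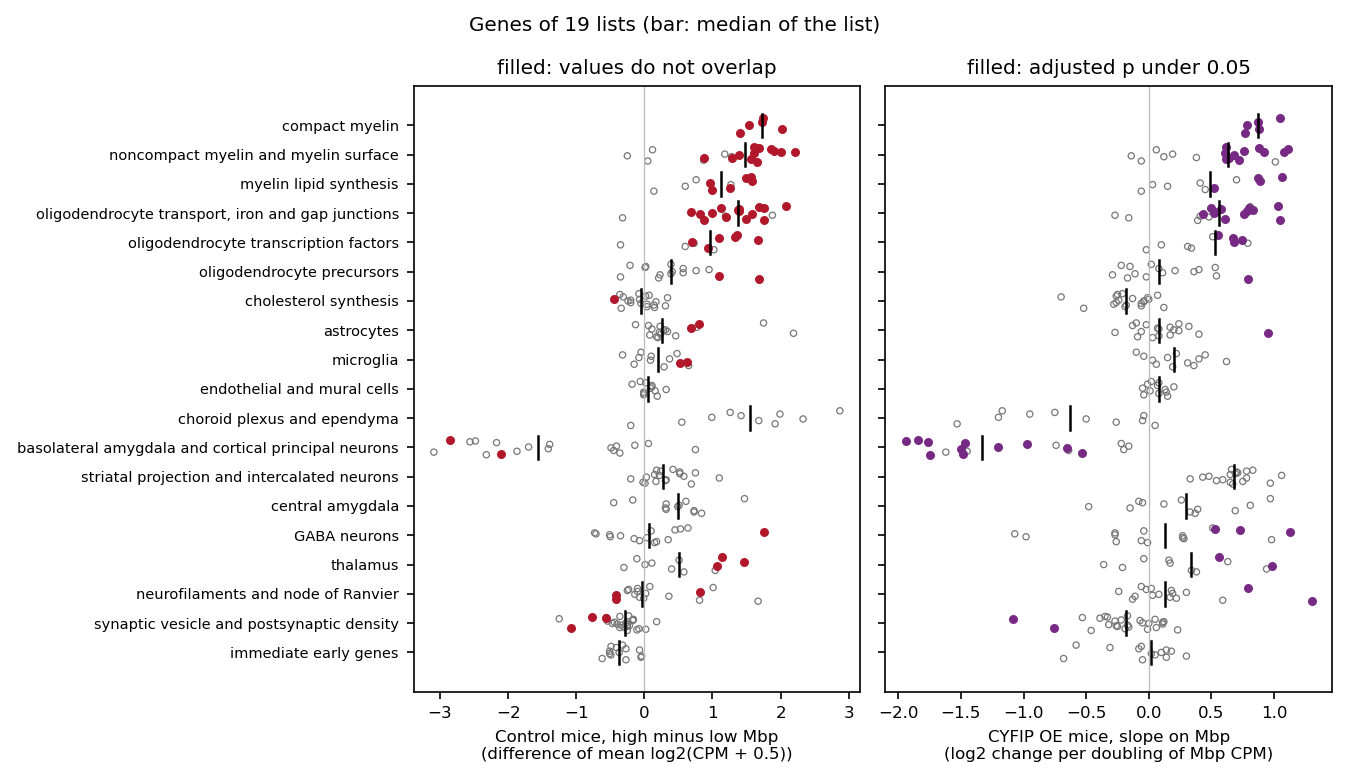
Each point is a gene of 1 of 19 lists (rows), with black bars at the list medians. The left panel gives the difference of mean log2(CPM + 0.5) between the 5 high and the 5 low Control mice, filled where the values do not overlap, and the right panel gives the slope on Mbp in 15 CYFIP OE mice, filled where the adjusted p is under 0.05. Compact myelin lies to the right in both panels, with medians of 1.73 and 0.87, and principal neurons to the left, with medians of -1.56 and -1.33.

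Synaptic genes shared by most neurons were lower by less. Of 26 genes of synaptic vesicles and the postsynaptic density 24 had a negative difference, with a median of -0.28, and 3 were lower without overlap. These 3 became 7 without Control 2 (26.9%, against 2.35% of all genes) and 6 without Control 13 (23.1%, against 3.08%). They became 5 without Control 1 or Control 3 (19.2%, against 2.19% and 1.92%). The 3 in the full sets were Shank1, a scaffold of excitatory synapses, Syn1, which tethers vesicles, and Vamp2, the vesicle fusion protein. Shank1 had 94.3, 55.2, 102, 53.5 and 61.0 CPM in the high and 118, 213, 142, 128 and 155 in the low set. In CYFIP OE mice 2 of the 26 fell, Shank1 with a slope of -0.76 (adjusted p = 0.00866 from edgeR) and Stx1a, a fusion protein of the terminal, with a slope of -1.08 (adjusted p = 0.00665 from edgeR). Without CYFIP OE 1 the 2 became 4, and without the mice aged 77 days 1. The summed level of the list was 6212 to 7661 CPM in the high set and 8114 to 9468 in the low set, without overlap, and in the other 6 Control mice it was 5768 to 7917 CPM, so it did not follow Mbp through the middle of the ranking.

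For genes of striatal neurons the Control difference rested on single mice. Of 18 striatal genes 0 were without overlap, and the median difference was 0.28. That median was -0.33 without Control 2 and 0.61 without Control 1, so its sign turned on 1 library. Without Control 1 there was 1 gene higher without overlap (5.56%, against 2.12% of all genes). Penk, the enkephalin precursor, had 482, 1563, 997, 1700 and 1335 CPM in the high set and 1283, 74.0, 1175, 1206 and 931 in the low set, with Control 1 and Control 2 as the lowest of each. Without both mice the striatal median was 0.02. In CYFIP OE mice all slopes of the list were positive, from 0.33 to 1.06, and 0 passed edgeR's test, with 13 rising at an unadjusted p under 0.05 and 4 by DESeq2. By edgeR 3 rose without CYFIP OE 2, 4 without CYFIP OE 8, and 1 without CYFIP OE 14 or CYFIP OE 15. CYFIP OE 1, with the lowest Mbp, was low in Penk as well (65.0 CPM) and had a standardized connectivity to the other libraries of -4.74, against -1.18 for the next lowest mouse. The study's methods removed samples with a connectivity score under -2, whereas CYFIP OE 1 was kept in the main test here. Without CYFIP OE 1 there were 130 rising and 144 falling genes. Of 12 genes of the central amygdala 0 were without overlap, with a median of 0.50, but without Control 3 there were 3 higher without overlap (25%, against 2.56% of all genes) and a median of 0.78. The central amygdala median stayed positive, from 0.35 to 0.78, whichever mouse was left out. Of the 12 genes 0 passed edgeR's test in CYFIP OE mice, with 3 rising at an unadjusted p under 0.05 and 2 by DESeq2.

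Pvalb, the calcium-binding protein of fast-spiking interneurons (chromosome 15, 78191114 to 78206400), was the gene of the GABA neuron list that was higher without overlap, 1 of 16. It had 107, 89.8, 49.7, 53.5 and 136 CPM in the high set and 16.6, 35.5, 24.1, 20.4 and 24.8 in the low set, a difference of 1.76. Among the CYFIP OE mice it ran from 14 over a median of 28.0 to 133 CPM and rose with Mbp, with a slope of 1.13 (standard error 0.22, adjusted p = 0.00838 from edgeR). Within the 3 name prefixes its difference was 1.26, 2.11 and 1.82. Slc32a1, the vesicular transporter for GABA, rose with a slope of 0.73 (adjusted p = 0.00686 from edgeR), and Gad2, an enzyme of GABA synthesis, passed the threshold narrowly (slope 0.53, adjusted p = 0.0495 from edgeR). In Control mice both overlapped, Slc32a1 with 167 to 270 against 77.9 to 224 CPM. The median difference of the list was 0.07, against 0.00 for all genes. The 1 gene higher without overlap became 2 without Control 3 or Control 7 (12.5%, against 2.56% and 3.45% of all genes). The 3 rising genes became 1 without CYFIP OE 13 or without the mice aged 77 days, and 2 without any of 12 other CYFIP OE mice. At an unadjusted p under 0.05 from edgeR, 6 genes of the list rose and 4 fell. After adjustment 1 gene fell without CYFIP OE 8 or CYFIP OE 14. By overlap 1 was lower without Control 7 or Control 12 (6.25%, against 1.64% and 2.16% of all genes).

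Nefh, the heavy neurofilament of large axons, and Spp1, or osteopontin, were the 2 of 16 neurofilament and node genes that rose in CYFIP OE mice, with slopes of 0.79 and 1.30 (adjusted p = 0.0216 and 0.0238 from edgeR). In Control mice Nefh had 30.6 to 76.3 CPM in the high and 18.7 to 36.6 in the low set. Cntn2, a contactin of the zone beside the node, which oligodendrocytes also make, was higher without overlap, at 50.6 to 71.8 against 24.4 to 39.6 CPM. Of the 2 genes lower without overlap, Scn8a, a sodium channel gene of the node, had a difference of -0.41 and did not pass the test in CYFIP OE mice. The median of the list was -0.04. The 1 gene higher without overlap became 4 without Control 9 (25%, against 2.4% of all genes). It became 2 without Control 1, 2, 3 or 10 (12.5%, against 2.12% to 3.55%). The 2 rising genes became 0 without CYFIP OE 13, when 59 of all genes rose, and 1 without CYFIP OE 7.

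Of 11 thalamic genes, Tcf7l2, Zic1 and Plekhg1 were higher without overlap. Tcf7l2, a transcription factor of thalamic neurons that differentiating oligodendrocytes also express, had 93.2, 27.0, 28.0, 23.0 and 32.9 CPM in the high set and 21, 17.7, 12.2, 10.3 and 19.8 in the low set. Zic1, a zinc finger factor of medial thalamus and septum, had 84.5 CPM in Control 1 and 20.2 to 22.8 in the other high mice against 9.25 to 18.3 in the low set. Both rose in CYFIP OE mice, with slopes of 0.56 and 0.98 (adjusted p = 0.0417 and 0.00141 from edgeR). Slc17a6, the glutamate transporter of thalamic relay cells, had a difference of -0.30. The 3 genes without overlap became 5 without Control 3 (45.5%, against 2.56% of all genes). The 2 rising genes became 1 when any of 9 CYFIP OE mice was left out, and also without the mice aged 77 days.

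Most astrocyte genes had somewhat higher means in the high set, 17 of 18, up to a difference of 2.19. Of the 18 genes 2 were higher without overlap (11.1%, against 1.85% of all genes), and 7 were without Control 2 (38.9%, against 3.55% of all genes). The 2 were Aqp4, the water channel of astrocyte end-feet, at 41.1 to 62.4 against 20.9 to 39.6 CPM, and S100b, which oligodendrocytes also express, at 241 to 371 against 177 to 223 CPM. The median was 0.26, and Slc1a2, the main glutamate transporter, had 1624 ± 254 and 1759 ± 115 CPM (SD, n = 5 each). Gfap, the filament of fibrous astrocytes, had 63.9, 31.8, 20.8, 31.8 and 22.3 CPM against 7.79, 32.6, 9.18, 6.17 and 3.74, with Control 2 as the high exception in the low set. Agt, angiotensinogen, was the astrocyte gene called as rising when all 15 CYFIP OE mice were used, with a slope of 0.95 (adjusted p = 0.0417 from edgeR). Without CYFIP OE 1 there were 5 rising astrocyte genes and the median slope went from 0.08 to 0.27, while without any of 11 other CYFIP OE mice, or without those aged 77 days, there were 0. Of 12 microglial genes 2 were higher without overlap, among them Ctss, a lysosomal protease, with a median of 0.20, and of 12 endothelial and mural genes 0, with a median of 0.05. In CYFIP OE mice 0 microglial genes passed edgeR's test, with 4 rising at an unadjusted p under 0.05 and 2 by DESeq2, and 1 by edgeR without CYFIP OE 4. Endothelial and mural genes passed it in 0 cases, with 0 at an unadjusted p under 0.05 and 0 by DESeq2.

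**Figure D4:**
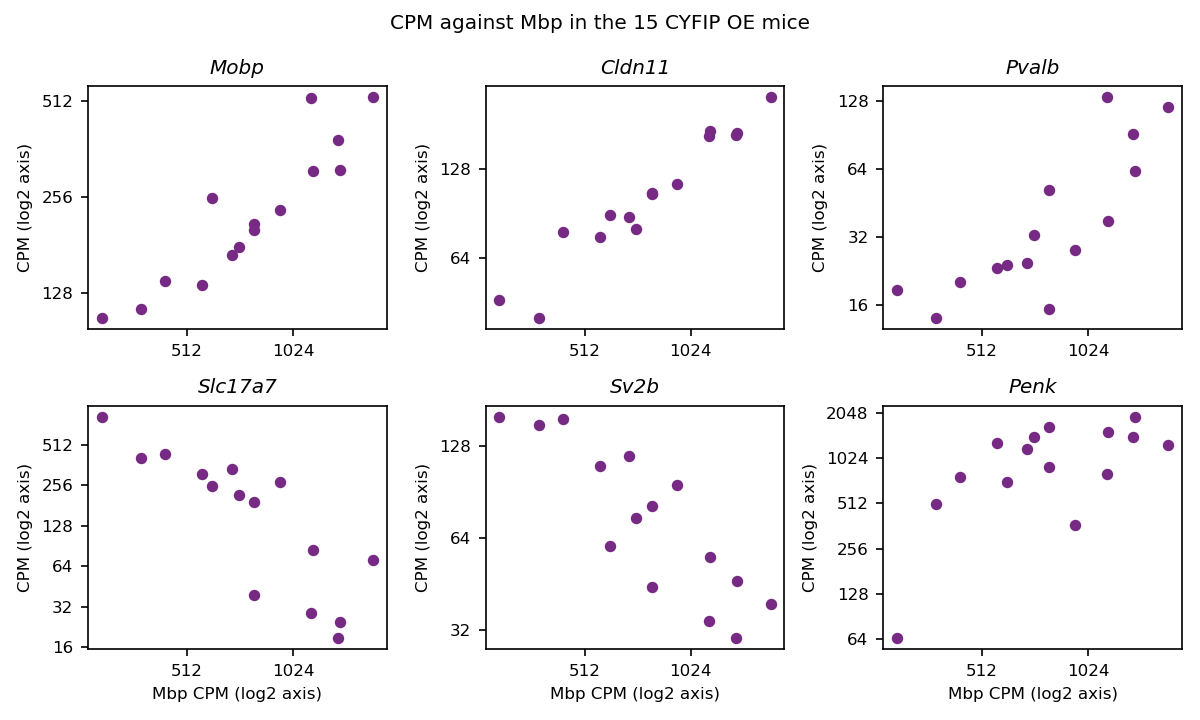
CPM of 6 genes (vertical axes, log2) against the CPM of Mbp (horizontal axes, log2) in the 15 CYFIP OE mice; each point is 1 mouse. Cldn11 climbs with Mbp in a narrow band, Mobp and Pvalb climb in wider ones, Slc17a7 and Sv2b fall, and Penk has 1 point at 65.0 CPM at the lowest Mbp.

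Among the 10 genes without overlap, with a mean of at least 10 CPM, that had the widest positive differences, 6 were on the lists above and Serpinb1a, Gatm, Gab1 and Prr18 were not. Serpinb1a, a protease inhibitor, led with 17.8 to 25.3 CPM in the high and 1.87 to 6.54 in the low set, a difference of 2.27, and it rose in CYFIP OE mice (slope 1.07, adjusted p = 0.00838 from edgeR). Gatm, which makes the creatine precursor guanidinoacetate, Gab1, a docking protein of growth factor receptors, and Prr18, a proline-rich protein, had differences of 1.90, 1.87 and 1.87 and slopes of 0.78, 0.77 and 0.84. Unc13c, a presynaptic priming protein, was among the 5 rising genes with the smallest p, with a slope of 0.96 (adjusted p = 0.000755 from edgeR). It had 123 to 196 CPM in the high set and 20.5 to 110 in the low set.

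Next to Slc17a7 and Cck, the widest negative differences without overlap at that level were those of Nwd2, Vxn, a regulator of neural differentiation, and Cadps2, a priming factor of dense-core vesicles, with differences of -2.17, -2.13 and -1.73. Vxn had 47.7, 17.8, 114, 19.8 and 30.9 CPM in the high and 141, 155, 132, 179 and 196 in the low set. Sv2b, a vesicle glycoprotein of excitatory terminals, had 24.3 to 97.4 against 107 to 171 CPM and the smallest p of the falling genes, with a slope of -1.02 (standard error 0.14, adjusted p = 0.00101 from edgeR). Nwd2, Vxn, Cadps2, Galnt9 and the potassium channel gene Kcnc4 also fell in CYFIP OE mice, with slopes from -1.46 to -1.05. Fhl2 and Rgs12, with differences of -1.46 and -1.41, did not pass the test there. Ccdc177, Arhgef25 and Opcml, with small p in CYFIP OE mice and slopes of -0.87, -0.96 and -0.57, overlapped between the Control sets. Nr4a2, a nuclear receptor of deep cortical and claustral neurons, overlapped too and had the widest mean difference of the genes that fell, -3.31, with 4.34 to 100 CPM in the high and 49.1 to 286 in the low set.

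The Control and CYFIP OE comparisons share no mice. Over all 17428 genes 8631 had a higher and 8797 a lower mean in the high Control set. Without overlap, 1.85% of all genes were higher and 1.35% lower. Of the 133 genes that rose in CYFIP OE mice 128 had a higher mean in the high Control set, with a median difference of 1.14. Of these 133, 87 were without overlap, which is 65.4% of the rising genes and 27% of the 322 genes higher without overlap. Of the 213 genes that fell 207 had a lower mean in the high set, with a median of -0.57, and 31 were without overlap, which is 14.6% of the falling genes and 13.1% of the 236. Genes without overlap in the opposite direction numbered 0 in both. Some name prefixes held mice of both genotypes.

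**Figure D5:**
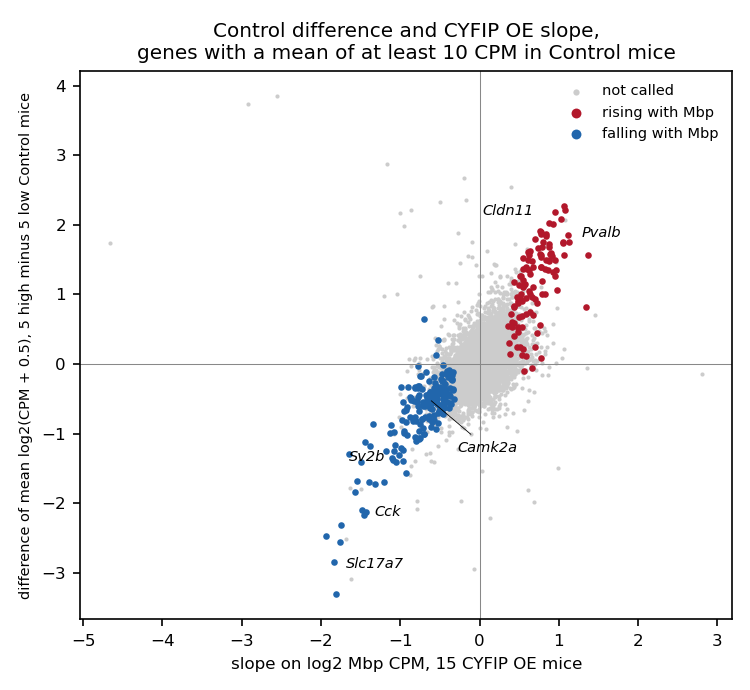
Slope on Mbp in the 15 CYFIP OE mice (horizontal) against the difference of mean log2(CPM + 0.5) between the 5 high and the 5 low Control mice (vertical), 1 point for each gene with a mean of at least 10 CPM in Control mice. Of these, 110 rising genes (red) lie mostly at positive and 183 falling genes (blue) mostly at negative differences, with 8333 genes that were not called in grey.

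The promoters of 4 genes that moved together with or against Mbp are shown to place the transcription factors above beside their possible sequences. Mobp and Mag stand for the myelin genes, and Slc17a7 and Cck are the principal neuron genes without overlap. Each window has 300 bases, 250 before and 50 after the annotated start, read on the strand of the gene from RefSeq's promoters of GRCm38.p6. They lie at chr9:120149492-120149791 on the plus strand (Mobp), chr7:30914814-30915113 on the minus strand (Mag), chr7:45163671-45163970 on the plus strand (Slc17a7) and chr9:121495645-121495944 on the minus strand (Cck). Capitals mark matches on either strand to ACAAAG, a core of SOX factor sites, CTGGNAC, a core of MYRF sites, and CAGATG, an E-box of proneural factors.
Mobp: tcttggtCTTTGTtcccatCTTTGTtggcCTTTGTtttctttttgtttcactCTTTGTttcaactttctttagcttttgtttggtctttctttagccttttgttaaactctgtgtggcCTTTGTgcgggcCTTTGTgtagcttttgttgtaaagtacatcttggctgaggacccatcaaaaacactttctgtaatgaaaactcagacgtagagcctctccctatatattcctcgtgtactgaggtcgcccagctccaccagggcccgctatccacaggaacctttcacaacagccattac
Mag: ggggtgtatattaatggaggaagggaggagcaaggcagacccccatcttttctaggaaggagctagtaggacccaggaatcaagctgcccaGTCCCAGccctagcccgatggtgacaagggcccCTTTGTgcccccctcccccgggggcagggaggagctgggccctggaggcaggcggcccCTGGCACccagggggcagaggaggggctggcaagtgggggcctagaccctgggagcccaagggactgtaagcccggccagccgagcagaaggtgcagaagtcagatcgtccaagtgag
Slc17a7: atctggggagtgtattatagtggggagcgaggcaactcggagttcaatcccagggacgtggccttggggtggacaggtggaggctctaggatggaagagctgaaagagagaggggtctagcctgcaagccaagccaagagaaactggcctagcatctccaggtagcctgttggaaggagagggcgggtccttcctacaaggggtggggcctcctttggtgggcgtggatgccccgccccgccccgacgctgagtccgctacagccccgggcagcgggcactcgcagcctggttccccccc
Cck: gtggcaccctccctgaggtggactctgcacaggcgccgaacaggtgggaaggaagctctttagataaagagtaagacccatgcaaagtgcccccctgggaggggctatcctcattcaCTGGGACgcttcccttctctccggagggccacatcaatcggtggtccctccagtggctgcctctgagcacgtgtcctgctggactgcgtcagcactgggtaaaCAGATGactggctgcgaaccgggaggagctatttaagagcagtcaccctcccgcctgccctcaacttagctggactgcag

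The Mobp window held 6 matches to ACAAAG, or CTTTGT on the other strand, in a stretch rich in thymine. The Mag window held 1 match to ACAAAG and 2 to CTGGNAC, the Cck window 1 match each to CTGGNAC and CAGATG, and the Slc17a7 window none of the 3. None of the matches overlapped. The shares over all promoters used 1 window for each gene name and left out the chromosome that carries Mbp. Among these 27025 promoters, 18.7% held ACAAAG, 19.2% held CTGGNAC and 17.3% held CAGATG. Of the 20 compact and noncompact myelin genes with a window, 5 held ACAAAG, 6 held CTGGNAC and 4 held CAGATG, and of the 11 principal neuron genes with a window 4, 3 and 2 did. Such short matches are a description of the letters and no evidence of binding.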

How the data were processed

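RNA from the punches of 31 mice was measured by QuantSeq 3′ sequencing. The authors deposited expected counts per gene, 1 file per mouse, estimated with Salmon. STAR, Picard and MultiQC and the build GRCm38 are also named in the submitters' processing notes, without versions. Each file held 48709 genes, of which 48349 were named by GENCODE, and totals ran from 5286925 to 8685521 counts. Estimated counts were rounded to whole numbers for the tests. Replicates are separate mice. Mouse numbers were given in accession order and pair nothing.

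CPM was the count divided by the file total and scaled to 1000000 counts. The 17428 genes kept had 10 or more reads in no fewer than 20% of the mice. Differences between the Control sets used a pseudocount of 0.5 CPM, which understates the change of low genes, and had no test. The slope on log2 Mbp CPM in 15 CYFIP OE mice was fitted with edgeR 4.0.16 (R 4.3.3, TMM, quasi-likelihood test, sex and line as covariates), with Benjamini-Hochberg adjustment over 17427 genes, and with DESeq2 1.42.0 as an alternative. The 5 sequencing components the study used as covariates were not used here. On simulated data of 17428 genes, 200 were given a slope of size 1, rising or falling in turn. Of these 200 edgeR recovered 176, with 6 false calls among the remaining genes. DESeq2 recovered 177, with 28 false calls. The simulated slopes were confined to genes above a floor of mean counts, and genes were drawn independently of each other. Recovery and false calls in the real libraries were therefore not measured. Tables and figures were made with Python 3.11.15, numpy 2.4.6, pandas 2.3.3 and matplotlib 3.10.9.

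The genes named were Mbp, the 3 most abundant genes of each list (5 for compact myelin, noncompact myelin and transcription factors), the 10 widest positive and 10 widest negative differences without overlap at a mean of at least 10 CPM, and the 5 smallest p in each direction in CYFIP OE mice. Other named genes were chosen after their values were seen. Some genes that the rule names are not reported here. The sets and the lists were chosen with earlier results of these data known. Alternatives covered scaling, the filter, the pseudocount, the size of the sets, the ranking measure, covariates, lines and mice left out. Omissions of Control 1 with Control 2, of the 2 mice with the highest Mbp and of each CYFIP OE mouse were added after seeing the data.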

Additional observations from a re-analysis of the deposited data

Results flagged for a closer look

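For each of 119 named genes and each set of 5 Control mice, the gap between the highest or the lowest mouse and its nearest neighbour was set against the range of the set (Dixon's ratio, critical value 0.71). Of 238 such groups 18 exceeded it. In random draws from a normal distribution about 1 in 20 groups exceeds it. That rate does not carry over to these groups, because the sets are the ends of a ranking by Mbp. Some of the genes were also chosen after their values were seen. Most of these values belonged to Control 1 or Control 2.

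Control 1 stood above the rest of the high set in Mobp (792 CPM, the others 447 to 523), Cldn11 (486, the others 230 to 285), Plekhb1 (192, the others 112 to 127) and Amotl1 (135, the others 62.3 to 72.0). It also stood above them in the thalamic genes Tcf7l2 (93.2, the others 23.0 to 32.9) and Zic1 (84.5, the others 20.2 to 22.8), and below them in the immediate early gene Egr4 (37.1, the others 61.3 to 63.5).

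Control 2 stood below the rest of the low set in the striatal genes Penk (74.0 CPM, the others 931 to 1283) and Ppp1r1b (145, the others 996 to 1220), in Scn4b of the central amygdala list (2.99, the others 167 to 198) and in the immediate early gene Egr1 (150, the others 259 to 320). It stood above them in Enpp2 (1551, the others 68.2 to 151), Cntn1 (310, the others 224 to 243) and Galnt9 (54.2, the others 21.3 to 26.0).

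The remaining values were those of Tppp in Control 10 (148 CPM, the others 165 to 171), Syn1 in Control 12 (175, the others 207 to 213), Rarres2 in Control 7 (0.537, the others 11.5 to 31.2) and Omg in Control 5 (31.2, the others 37.5 to 40.1).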

How the results depend on the processing

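No paired analysis was possible because the comparison of the Control sets has no test and mouse numbers pair no mice. Differences within the 3 name prefixes that held both sets, with 9 mice, stand beside the results. The counts of genes without overlap, 322 higher and 236 lower in the high set, depended on how many mice were compared. They were 2559 and 1069 with 3 against 3 mice, 19 and 21 with 8 against 8 mice, 1620 and 1499 within the line labelled 1, and 1159 lower within the line labelled 3. They were 685 and 582 without Control 1 and Control 2. Leaving out 1 mouse gave 370 to 619 higher and 286 to 536 lower genes. The lower count moved by over 1.5 times without Control 1 (382), Control 13 (536), Control 2 (409) and Control 12 (377), and the higher count without Control 7 (601) and Control 2 (619). Other scalings, no filter and a ranking by the other myelin genes stayed within 1.5 times. Fewer mice leave fewer values that have to be separated.

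The 133 rising and 213 falling genes in CYFIP OE mice became 304 and 408 with DESeq2, 201 and 330 without a filter, and 326 falling without covariates. They became 73 and 123 without the 2 mice farthest from the median Mbp, 37 and 33 without the mice aged 77 days, 31 and 39 without the 2 mice with the highest Mbp, 11 and 6 in the line labelled 1, and 32 and 40 in the line labelled 3. Leaving out 1 mouse gave 59 to 164 and 78 to 260. The cause of these changes was not tested. The named Control differences gave 2238 values that moved by less than 1 SD and 99 that moved further, out of 2337. Reversal of sign was counted only for named genes without overlap between the sets, with 0 cases. Changes of sign in overlapping genes were not counted. The 64 named genes called in CYFIP OE mice kept their call in 1485 of 1780 repeats and lost it in 295, with 0 reversed. Gad2 lost it in 23 of 28, Gab1 in 20, Agt in 19, Opalin in 18 of 27, Tcf7l2 in 17, Sox10 in 16 and Cers2 in 12. Of 1621 repeats for 58 named genes not called, 80 changed sign and 41 passed the threshold.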

Other observations

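Immediate early genes, which neurons switch on within minutes of activity, had negative differences in 13 of 13 cases, with a median of -0.37, and overlapped between the sets in every case. Without Control 7, Control 2 or Control 12 there was 1 lower without overlap (7.69%, against 1.64%, 2.35% and 2.16% of all genes). In CYFIP OE mice 0 of the 13 passed edgeR's test, with 2 falling at an unadjusted p under 0.05 and 0 by DESeq2, and the median slope was 0.02. Ranked within the line labelled 1 the Control median was 0.20, and within the line labelled 3 it was -0.35.

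Genes of choroid plexus and ependyma had a median difference of 1.55 over 10 genes, with 0 without overlap. When Control 2 was left out, 2 were higher without overlap (20%, against 3.55% of all genes). In CYFIP OE mice the median slope was of the other sign, -0.63, and 0 passed edgeR's test, with 3 falling at an unadjusted p under 0.05 and 0 by DESeq2. Ttr, the transthyretin made by choroid plexus, ran from 47.0 to 6842 CPM in the high set and from 14.2 to 9370 CPM in the low set.

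In the 6 Control mice between the sets, compact myelin genes summed to 1104 to 2662 CPM, against 3178 to 6254 in the high and 867 to 1552 in the low set. Control 6, at 1104 CPM, lay within the low set, although its Mbp of 795 CPM was just above it. Principal neuron genes summed to 1377 to 2455 CPM in these mice, between 977 and 2110 CPM in the high and 2188 and 3438 CPM in the low set.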
